A study of Mus musculus with 23 samples.

Results

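The genes described here are 8 transcription factors and cofactors of the Pax, Six-type, Eya and Pitx families, chosen by symbol from the 32793 gene rows of an RNA sequencing series on C2C12 cells. C2C12 cells are immortalised mouse myoblasts, which divide while serum is plentiful and form multinucleated myotubes once it is reduced. The members were Pax3, Pax7, Six2, Six4, Six5, Eya1, Eya4 and Pitx3, a list by family and symbol with no cut on measured values. The series held 23 libraries in 8 groups, made from total RNA by oligo dT selection of poly(A) RNA. Cells carried either the WT genotype (the control) or the Runx1KO genotype. Each genotype was sampled on day 0 in growth medium with 20% fetal bovine serum, and on days 1, 3 and 6 in medium with 2% horse serum. Each group had 3 libraries, except WT on day 0 with 2. The titles call the last time point day 6, whereas the series' design text gives another day for it, and the titles were followed. No source used here says whether the Runx1KO cells were 1 clone or a pool, nor whether the replicates were separate cultures, so p-values measure the spread between these libraries, which may be technical.

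Pax3 and Pax7 are paired-box and homeodomain factors that mark muscle progenitors, Pax3 in the embryonic somite and limb and Pax7 in the satellite cells of postnatal muscle. Six-family proteins are homeodomain factors that bind the MEF3 site in promoters such as that of Myog, and Eya proteins are the phosphatase cofactors that turn Six-family factors into activators. Pitx3 is a bicoid-type homeodomain factor known from the lens, from midbrain dopamine neurons and from differentiating skeletal muscle. Among these families, Pax3, Pax7 and the Six-family factors with Eya are placed above Myf5, Myod1 and Myog. The latter are the bHLH factors that commit cells to muscle and drive differentiation.

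All 8 symbols were present, but only 6 were expressed at levels that allowed a test. Pax3 never exceeded 6 estimated counts and Six2 never exceeded 1 count in any library, and neither passed the filter on low counts. Pax7, Six4, Six5, Eya1, Eya4 and Pitx3 had at least 22 counts in every library. In the GENCODE M21 annotation of GRCm38 (mm10, the build named in the submitters' processing notes), Pax7 lies on the minus strand of chromosome 4 from 139737062 to 139833528, Six4 on the minus strand of chromosome 12 from 73099609 to 73113456, and Six5 on the plus strand of chromosome 7 from 19094594 to 19098549. Eya1 spans 14168954 to 14310235 on chromosome 1, Eya4 spans 23102963 to 23350786 on chromosome 10 and Pitx3 spans 46135685 to 46148326 on chromosome 19, all on the minus strand. Pitx3 overlaps Elovl3, a fatty acid elongase gene on the opposite strand that never exceeded 20 counts in the deposited table. Whether the authors' counting used strand is not given in the sources used here. Six2 lies 55.0 kb from Six3.

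RefSeq promoter windows (GRCm38.p6, 250 bases before to 50 bases after an annotated start) were given for 6 of the 8 members, in 8 windows. The upstream 250 bases are shown for Pitx3, the member with the widest difference between genotypes, and for Six4 and Six5. Six4 was the only member to pass the test for an unequal change over time between genotypes in the reported fit. Six5 had the most positive change of WT from growth medium to day 3. Capitals mark matches to the motifs searched on both strands. These were TGTGGT and TGCGGT (the core bound by RUNX factors), CAGCTG (an E-box of the bHLH factors) and TCAGGTT (the MEF3 core bound by Six-family factors).
Pitx3, chr19:46148326-46148575, minus strand: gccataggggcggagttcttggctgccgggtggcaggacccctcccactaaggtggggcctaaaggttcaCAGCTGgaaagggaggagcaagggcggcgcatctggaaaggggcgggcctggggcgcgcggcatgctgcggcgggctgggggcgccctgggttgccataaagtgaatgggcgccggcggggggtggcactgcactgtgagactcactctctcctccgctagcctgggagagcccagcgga
Six4, chr12:73113246-73113495, minus strand: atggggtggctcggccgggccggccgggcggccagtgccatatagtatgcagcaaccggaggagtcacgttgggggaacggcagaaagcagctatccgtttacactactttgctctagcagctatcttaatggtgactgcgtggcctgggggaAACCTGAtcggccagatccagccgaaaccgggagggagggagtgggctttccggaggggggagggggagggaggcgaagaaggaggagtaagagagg
Six5, chr7:19094294-19094543, plus strand: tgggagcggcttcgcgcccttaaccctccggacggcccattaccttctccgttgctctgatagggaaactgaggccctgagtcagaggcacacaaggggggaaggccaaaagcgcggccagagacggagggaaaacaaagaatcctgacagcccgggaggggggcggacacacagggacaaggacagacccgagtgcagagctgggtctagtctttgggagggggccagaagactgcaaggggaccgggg
The Pitx3 window held 1 CAGCTG, beginning at position -180 from the start. One of the 2 Six4 windows, the one shown, held 1 TCAGGTT on the reverse strand, beginning at position -97. Neither RUNX core was present in any of the 8 windows, and the windows of Pax7, Six2, Six5 and Eya4 held none of the 4 motifs. Over 32851 RefSeq windows of the same length, 16.3% held CAGCTG, 4.1% held TCAGGTT, 16.8% held TGTGGT and 6.5% held TGCGGT. A match is a description of the letters only.

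Library totals lay between 22197606 and 23684077 estimated counts, and replicates differed by more than sampling noise in every group (chi-square per degree of freedom of 3.10 to 61.3 between replicate pairs). Runx1, the targeted gene, was not lower in the KO-labelled libraries. It stood at 118 to 122 CPM (the count over the scaled library size, in the usual per-million unit) against 83.9 to 84.0 CPM in WT on day 0, and at 297 to 319.7 CPM against 146 to 165 CPM on day 6. The edited part of the gene is not given in the sources used here, so the mRNA level cannot check the label. Directions below are those of the libraries as labelled. Replicate 2 of the day 1 group labelled KO stood apart from its group. Its deviation from the group mean followed GC content across 13265 tested genes (r = -0.62, over genes, which are not independent), while r in the groups of days 0 and 3 and of WT on day 1 stayed between -0.06 and 0.05. Replicates 1 and 3 of that group, whose deviations share its mean, had r of 0.43 each. On day 6, WT replicates 2 and 3 deviated in opposite directions (0.22 and -0.22). Myoblast markers (Des, Cdh15, Myod1 and Myf5) were high throughout, and apart from day 1 (1994 to 2116 CPM in WT, 1924 to 2512 in the KO-labelled libraries) their sum did not overlap, at 1547 to 2158 against 2269 to 3481 CPM, although Myf5 alone was lower in the KO-labelled libraries on days 0, 1 and 6. Several other marker sums also moved with genotype, most of all that of 4 myotube genes (Myh3, Ckm, Acta1 and Mymk). Their summed level was 16.0 to 27.9 CPM in WT and 52.7 to 92.4 CPM in the KO-labelled libraries on day 1, 1589 to 1755 against 2561 to 4728 CPM on day 3, and 1288 to 1507 against 7351 to 9037 CPM on day 6, with Mymk alone overlapping between genotypes on day 1. The sum of fibroblast markers (Pdgfra, Dcn, Lum, Thy1 and Tcf21) was lower in the KO-labelled libraries on day 0 (6.63 to 11.2 against 15.1 to 16.5 CPM) and day 1 (28.0 to 30.3 against 47.5 to 49.0 CPM), and higher on day 3 (63.4 to 65.9 against 43.0 to 45.9 CPM) and day 6 (61.3 to 85.5 against 48.5 to 54.5 CPM). Its members did not move together: on day 3 Dcn was higher (50.7 to 53.0 against 24.9 to 26.3 CPM) and Pdgfra lower (12.0 to 14.9 against 18.0 to 20.1 CPM), on day 0 Dcn was the higher and Pdgfra the lower, and on day 6 Pdgfra overlapped between genotypes. Lum stayed at or below 8 counts, Tcf21 at or below 1 and Thy1 at 0. Stmn2, a neuronal tubulin-binding protein from the neural list, was at 86.6 to 93.8 CPM against 131 to 132 CPM in WT on day 0, and at 68.9 to 78.0 CPM against 88.5 to 126 CPM on day 6, lower without overlap on all 4 days. Sox10, which defines neural crest, had at most 2 counts. The sum of blood markers (Ptprc, Csf1r, Adgre1 and Cd68) was 10.1 to 12.2 against 4.24 to 7.78 CPM in WT on day 6 and at no more than 3.21 CPM in any group before. On day 6 Cd68 was higher in the KO-labelled libraries (9.44 to 11.5 against 2.47 to 4.77 CPM) and Csf1r lower (0.47 to 0.62 against 1.76 to 3.01 CPM), with Ptprc at no more than 1 count and Adgre1 at 0. Summed endothelial markers (Pecam1, Cdh5, Kdr and Tie1) stayed at or below 0.989 CPM and adipocyte markers (Adipoq at 0 in every library, Plin1, Cidec and Fabp4) at or below 0.528 CPM in all groups. The part of these differences in the results below was not tested.

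Levels per transcript length, in TPM as deposited, showed which factors were present. In WT on day 0, Pax7 was highest at 17.4 ± 2.503 TPM (SD, n = 2), followed by Six4 at 12.9 ± 0.820, Eya4 at 9.42 ± 0.679, Eya1 at 7.60 ± 1.03, Six5 at 3.95 ± 0.141 and Pitx3 at 2.07 ± 1.11 TPM. The libraries of neighbours in this order did not overlap. Pax3 and Six2 were at or below 0.13 and 0.04 TPM in all 23 libraries, so Pax7 supplied nearly all the Pax3/7 mRNA measured. Pax7 remained highest in WT on each later day, at 30.6 ± 2.69, 22.04 ± 0.772 and 17.0 ± 3.51 TPM (SD, n = 3 each) on days 1, 3 and 6. Its libraries overlapped those of no other member on days 1 and 3, but those of Six4 and Eya4 on day 6, when Six5, Eya4 and Six4 averaged 13.3, 12.8 and 11.6 TPM. In the KO-labelled libraries the order differed. On day 0 Pax7 and Six4 overlapped, at 13.0 ± 0.769 and 12.8 ± 0.900 TPM (SD, n = 3 each). On day 1 Six4 and Pax7 overlapped again at 21.3 ± 2.39 and 20.7 ± 1.69 TPM. On day 3 Six4 stood at 20.1 ± 1.40 and Pitx3 at 19.5 ± 0.637 TPM, overlapping each other and both above Pax7 at 16.8 ± 0.777 TPM. On day 6 Six4, Eya4 and Pitx3 lay between 13.9 and 15.4 TPM on average, with libraries overlapping between neighbours, above Pax7 at 9.37 ± 2.53 TPM. In bulk RNA, fewer cells expressing a gene and less of its RNA per cell cannot be told apart.

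**Figure D1:**
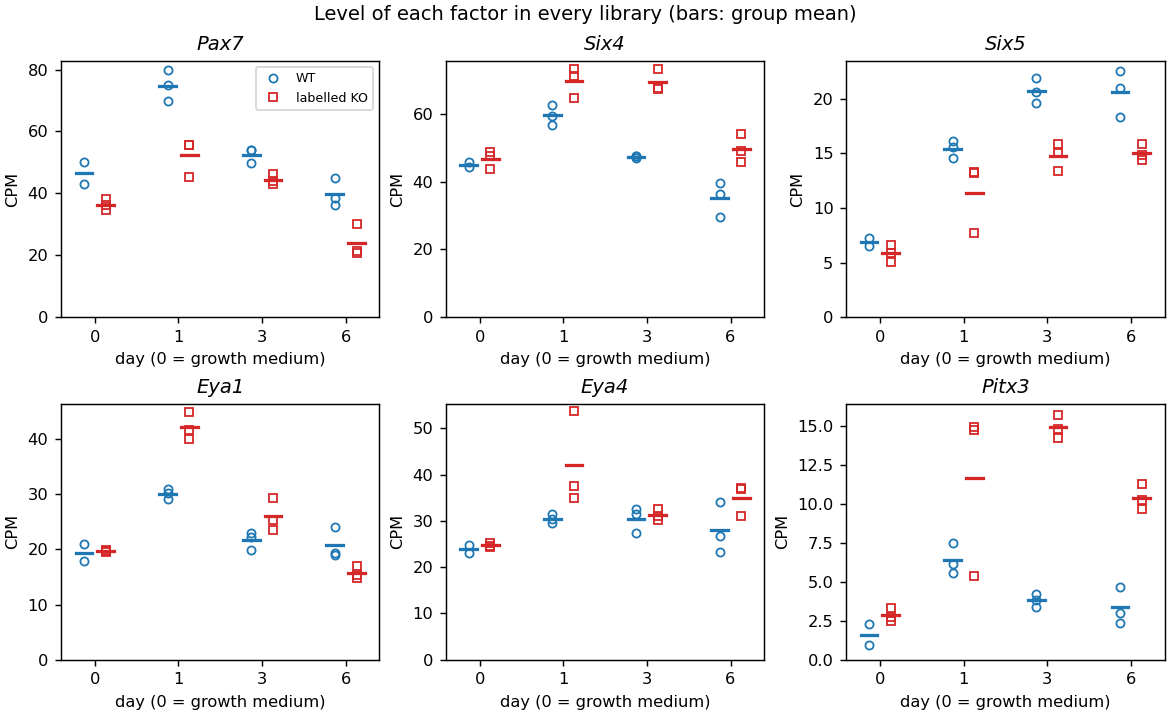
Level of the 6 tested factors in every library, in CPM, by day; circles are WT (2 libraries on day 0, otherwise 3), squares are KO-labelled libraries (3 each), and short bars are group means. Pitx3 on days 3 and 6 shows the widest gap between genotypes, and 1 of the 3 day 1 KO-labelled libraries lies apart for Pitx3, Six5 and Eya4.

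The first question of the design was whether the genotypes differed in growth medium and at each day of differentiation. Pitx3 was the member with the widest difference, several-fold higher in the KO-labelled libraries from day 3 on. Six4 was higher and Six5 lower on days 1, 3 and 6, Pax7 was lower on days 1 and 6, and Eya1 was higher early and lower late. A member passed where the Benjamini-Hochberg adjusted p of the edgeR quasi-likelihood fit, taken over all 14187 tested genes, was under 0.05. On day 0 none of the 6 did (Pax7 alone had an unadjusted p under 0.05, at 0.0106, and DESeq2 also called 0), where 17.5% of all tested genes passed, 7.36% higher and 10.1% lower. On day 1 all 6 passed, 4 of them higher among KO-labelled libraries and 2 lower, against 42.2% of all genes, 22.9% higher and 19.2% lower. Fitting only the day 1 groups called 2 of the 6, Pax7 and Eya1, and both TPM scales called 3. On day 3 there were 4 (3 up, 1 down), against 43.2%, with 24% higher and 19.2% lower. For day 6 the number was 5 (2 up, 3 down), against 42.9%, with 22% higher and 20.8% lower. The median log2 fold change (log2FC, labelled KO over WT) of the 6 was 0.03, 0.35, 0.15 and -0.04 on days 0, 1, 3 and 6, where that of all tested genes was -0.00, 0.03, 0.04 and 0.00.

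Among the paired-box members, Pax7, the satellite cell factor, was lower in the KO-labelled libraries on days 1 and 6. On day 0 it stood at 50.1 and 43.0 CPM in WT and at 38.1, 36.3 and 34.5 CPM in the KO-labelled libraries. On day 1 the values were 79.8, 75.0 and 69.7 CPM in WT against 55.8, 45.3 and 55.8 CPM. The WT libraries lay above all KO-labelled libraries on both days. On day 3 Pax7 was at 53.9, 49.7 and 53.9 CPM in WT and 46.4, 43.0 and 43.9 CPM in the KO-labelled libraries. By day 6 WT stood at 38.5, 36.2 and 45.0 CPM and the KO-labelled libraries at 30.1, 20.6 and 21.4 CPM. The groups did not overlap on either day, and 1 KO-labelled library on day 6 was higher than the other 2. The log2FC was -0.52 on day 1 (SE 0.11, adjusted p = 0.000767), with -0.73 on day 6 (SE 0.12, adjusted p = 2.35e-05). On days 0 and 3 the values were -0.36 (SE 0.13, adjusted p = 0.0576) and -0.24 (SE 0.11, adjusted p = 0.0931), which missed the threshold. Each of these passed in 7 of 32 alternatives, among them the replicate block for day 0 (-0.35, adjusted p = 0.0371, with adjusted p from 0.00777 to 0.516 over the alternatives).

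Pax3, the embryonic counterpart, had 1 and 2 counts in the WT libraries of day 0, 0 to 3 counts on day 1, and 0 counts in every WT library of days 3 and 6. The KO-labelled libraries had 0 to 2 counts on days 0 and 1, 1 to 6 counts on day 3 and 0 or 1 count on day 6. Most of these lie at or under 3 counts, the limit that a count of 0 allows. Without the filter the day 3 difference had an adjusted p of 0.0407, on 0 counts in WT and at most 6 counts in a KO-labelled library, too few to give it a size. Six2, known from kidney and craniofacial progenitors, had 1 count in each of 3 WT libraries and 0 in the other 20 libraries.

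In the Six-family, Six4, a MEF3-binding factor, overlapped between genotypes on day 0, with 45.7 and 44.3 CPM in WT and 48.6, 43.7 and 47.5 CPM in the KO-labelled libraries. On day 1 it was at 62.6, 56.5 and 59.3 CPM in WT against 64.6, 73.1 and 71.1 CPM. These day 1 groups were separate but close. On day 3 the WT libraries stood at 46.9, 47.5 and 47.4 CPM and those labelled KO at 73.3, 67.4 and 67.6 CPM. On day 6 they stood at 36.3, 29.4 and 39.6 CPM and at 54.0, 49.1 and 45.7 CPM. The separation was wide on day 3, where the 3 WT libraries lay within 1 CPM of each other, and narrower on day 6. The log2FC was 0.05 on day 0 (SE 0.10, adjusted p = 0.808), 0.23 on day 1 (SE 0.09, adjusted p = 0.0407), 0.55 on day 3 (SE 0.09, adjusted p = 2.07e-05), with 0.50 on day 6 (SE 0.09, adjusted p = 8.87e-05). The day 1 call was lost in 16 alternatives of scaling, tool, filter, unit or left-out library, and values ran from 0.17 to 0.28 over all alternatives.

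Six5, a homeodomain factor whose gene adjoins the myotonic dystrophy kinase gene Dmpk, went the other way. Its day 0 values were 6.55 and 7.27 CPM in WT and 6.62, 5.84 and 5.05 CPM in the KO-labelled libraries, which overlapped. On day 1 WT stood at 14.5, 15.6 and 16.1 CPM and the KO-labelled libraries at 13.3, 7.70 and 13.2 CPM. The low value was that of replicate 2, the library that deviated with GC content. On day 3 the values were 20.6, 19.6 and 21.9 CPM against 13.4, 15.9 and 14.99 CPM, and on day 6 they were 21.0, 22.6 and 18.3 CPM against 14.8, 14.4 and 15.9 CPM. WT was above every KO-labelled library on days 1, 3 and 6. The log2FC was -0.24 on day 0 (SE 0.18, adjusted p = 0.432), -0.44 on day 1 (SE 0.14, adjusted p = 0.0181), -0.49 on day 3 (SE 0.14, adjusted p = 0.00715), with -0.46 on day 6 (SE 0.14, adjusted p = 0.0108). Without replicate 2 of the KO-labelled group the day 1 value was -0.24, and without WT replicate 2 the day 6 value was -0.39. Neither passed then.

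The Eya cofactors differed by day. Eya1 was at 21.0 and 17.8 CPM in WT on day 0 and at 19.6, 19.9 and 19.6 CPM in the KO-labelled libraries. On day 1 it was at 29.2, 30.2 and 31.0 CPM in WT and 40.0, 44.9 and 41.6 CPM in the KO-labelled libraries. The genotypes overlapped in growth medium and were well apart a day later. On day 3 Eya1 stood at 19.9, 22.3 and 23.0 CPM in WT against 23.6, 25.3 and 29.4 CPM, and on day 6 at 24.2, 19.3 and 18.9 CPM against 17.0, 15.4 and 14.8 CPM. The KO-labelled libraries were thus above WT on days 1 and 3 and below it on day 6, with no overlap on any of these days. The log2FC was 0.02 on day 0 (SE 0.12, adjusted p = 0.947), 0.49 on day 1 (SE 0.10, adjusted p = 0.000343), 0.27 on day 3 (SE 0.10, adjusted p = 0.0372), with -0.40 on day 6 (SE 0.10, adjusted p = 0.00294). The day 3 call was lost in 18 alternatives other than the size minimum, and values ran from 0.12 to 0.33 over all alternatives. The calls of days 1 and 6 were kept in each of those alternatives.

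Eya4, the other Eya cofactor with measurable RNA among the members, was at 24.8 and 23.1 CPM in WT and 25.3, 24.6 and 24.4 CPM in the KO-labelled libraries on day 0. On day 1 it was at 30.5, 31.4 and 29.6 CPM in WT and 34.9, 53.8 and 37.6 CPM in the KO-labelled libraries. The value of 53.8 CPM came from replicate 2. On day 3 the groups overlapped, with 27.4, 31.5 and 32.5 CPM in WT and 32.5, 30.1 and 31.0 CPM in the KO-labelled libraries. They overlapped again on day 6, at 26.8, 23.3 and 34.0 CPM against 36.9, 37.2 and 31.0 CPM. Only the day 1 difference passed, with a log2FC of 0.47 (SE 0.13, adjusted p = 0.00631). This call was lost in 5 of 32 alternatives, among them the size minimum and the fit without replicate 2 (0.23). On days 0, 3 and 6 the values were 0.05 (SE 0.15), 0.03 (SE 0.13) and 0.32 (SE 0.13), the last with an adjusted p of 0.0552. The day 6 value passed in 5 of 32 alternatives and ran from 0.19 to 0.45 over all of them. The sign on days 0 and 3 turned with the scaling.

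Pitx3, the Pitx member, was at 0.968 and 2.27 CPM in WT on day 0 and at 3.31, 2.75 and 2.46 CPM in the KO-labelled libraries. On day 1 WT stood at 6.16, 5.60 and 7.47 CPM and the KO-labelled libraries at 14.9, 5.36 and 14.8 CPM. Replicate 2 was the low one, below all WT libraries, while the other 2 were about level and above WT. On day 3 Pitx3 was at 4.22, 3.38 and 3.82 CPM in WT and 14.8, 14.2 and 15.7 CPM in the KO-labelled libraries, and on day 6 at 2.36, 4.70 and 3.02 CPM against 9.66, 10.2 and 11.3 CPM. The groups were far apart on both days. The log2FC was 1.97 on day 3 (SE 0.28, adjusted p = 5.41e-06), a 3.92-fold difference, and 1.63 on day 6 (SE 0.29, adjusted p = 7.54e-05), a 3.10-fold difference. On day 1 it was 0.86 (SE 0.27, adjusted p = 0.0129), a call lost in 7 of 32 alternatives. These were the size minimum, both TPM scales (0.65 and 0.69), a fit of only the groups compared (0.84), and the fits without replicate 1 or 3 of the KO-labelled group (0.65 and 0.66) or WT replicate 2 (0.76). On day 0, where WT had 22 and 49 counts, it was 0.82 (SE 0.41, adjusted p = 0.194), with 0.34 without the first and 1.55 without the second of those libraries. The calls of days 3 and 6 were kept in all 32 alternatives, with values from 1.66 to 2.05 and from 1.37 to 1.95.

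**Figure D2:**
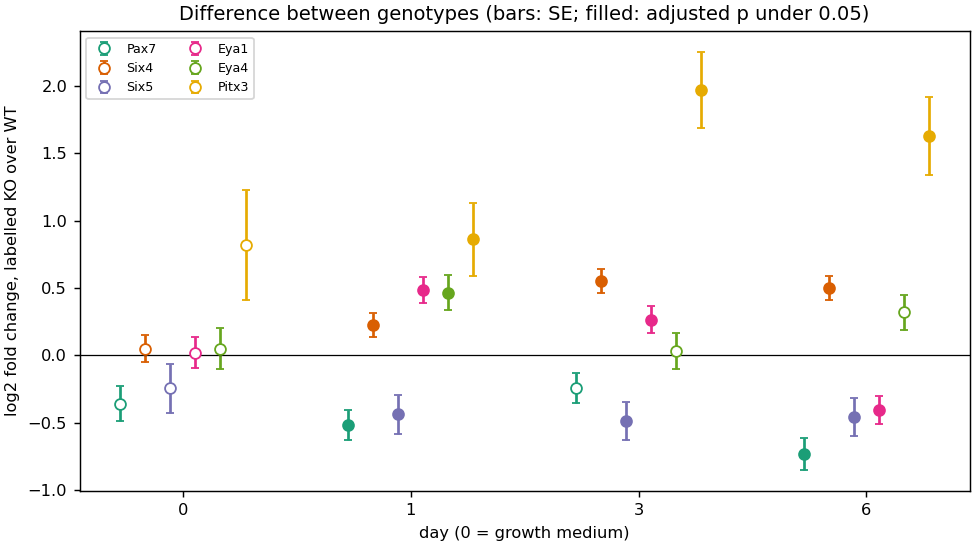
Log2FC of the KO-labelled libraries over WT (y axis) on each day (x axis) for the 6 tested factors; bars are standard errors and filled points passed an adjusted p under 0.05. Pitx3 reaches 1.97 on day 3, Six5 and Pax7 lie below 0 on every day, and Eya1 passes from 0.49 on day 1 to -0.40 on day 6.

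Of the 6 day 1 differences, 3 no longer passed without the KO-labelled replicate 2, although this was not the only library or setting on which day 1 calls turned. Replicate 2 of the KO-labelled libraries deviated from its group mean by -0.97 log2 units for Pitx3, whose longest transcript has a GC content of 68.3%, and by -0.52 for Six5 (61.1%). It deviated by 0.38 for Eya4 (41.3%), by -0.20 for Pax7 (55.3%), by 0.09 for Eya1 (46.2%) and by 0.07 for Six4 (44.8%). The members rich in GC were thus low in this library and those poor in GC high, the direction seen over all tested genes. Without that library, 3 of the 6 passed on day 1 in place of 6. Pax7 (-0.45), Eya1 (0.42) and Pitx3 (1.19) still passed, while Six4 (0.17), Six5 (-0.24) and Eya4 (0.23) did not. All groups share 1 estimate of the spread, and without this library Pax7 (-0.33) and Pitx3 (0.84) passed on day 0.

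**Figure D3:**
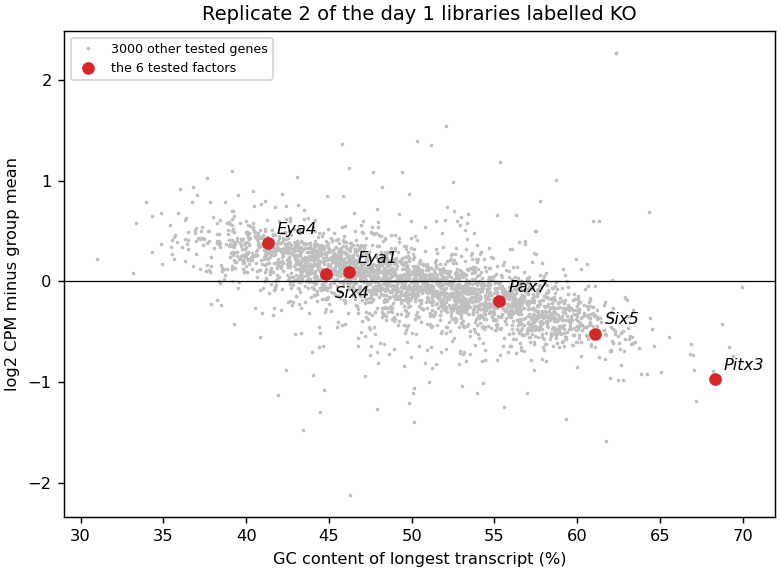
Deviation of replicate 2 of the day 1 KO-labelled libraries from its group mean in log2 CPM (y axis) against GC content of the longest transcript in percent (x axis); grey points are 3000 other tested genes drawn at random and red points the 6 tested factors. Pitx3 at 68.3% GC lies at -0.97 and Eya4 at 41.3% GC at 0.38.

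The design also asked how expression changed after serum withdrawal. The 3 comparisons within a genotype share their day 0 libraries. In WT, 5 of the 6 members rose by day 1, against 54.7% of all tested genes called (27.1% higher, 27.6% lower). By day 3, 2 rose, against 58.2% (29.2% higher, 29% lower), and by day 6, 2 rose and 1 fell, against 63.6% (32.6% higher, 31.1% lower). Among KO-labelled libraries all 6 rose by day 1, against 52.3% (27.2% higher, 25.2% lower), and all 6 were up at day 3, against 57.6% (30.4% higher, 27.2% lower). Of the day 3 calls, that of Eya4 was lost in 18 and that of Pax7 in 9 of 32 alternatives. By day 6, 3 rose and 2 fell, against 70% (36.6% higher, 33.5% lower). The median change of the 6 on day 1 was 0.66 in WT and 0.86 in the KO-labelled libraries, where all tested genes had medians of 0.02 and 0.04.

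Six5 and Pitx3 rose and stayed up in both genotypes. Six5 rose in WT by 1.16 (SE 0.17), 1.58 (SE 0.17) and 1.58 (SE 0.17) log2 units on days 1, 3 and 6, from 6.91 ± 0.506 CPM (SD, n = 2) to 20.6 ± 2.15 CPM (SD, n = 3) on day 6. In the KO-labelled libraries it rose by 0.96 (SE 0.16), 1.34 (SE 0.16) and 1.36 (SE 0.16), from 5.84 ± 0.787 to 15.01 ± 0.761 CPM (SD, n = 3 each). Each adjusted p for Six5 was at most 1.91e-05. Pitx3 rose in WT by 1.99 (SE 0.38, adjusted p = 0.000114) on day 1, 1.24 (SE 0.40, adjusted p = 0.0100) on day 3 and 1.06 (SE 0.40, adjusted p = 0.0250) on day 6. In the KO-labelled libraries the rises were 2.03 (SE 0.30), 2.39 (SE 0.30) and 1.87 (SE 0.30), each with an adjusted p of at most 6.70e-06. The WT day 0 value of Pitx3 rests on 2 libraries that differed from each other, which moved these values. Without the one with 49 counts the WT changes of days 1, 3 and 6 were 2.72, 1.97 and 1.78. Without the one with 22 counts they were 1.54, 0.78 and 0.61, and those of days 3 and 6 no longer passed.

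Pax7, Six4 and Eya1 rose on day 1 in both genotypes. Pax7 rose by 0.68 (SE 0.13) in WT and 0.52 (SE 0.12) in the KO-labelled libraries on day 1. By day 6 it had fallen by 0.59 log2 units below day 0 in the KO-labelled libraries (adjusted p = 0.000111), while in WT the day 6 value was -0.22 (adjusted p = 0.134). Six4 rose by 0.40 (SE 0.10) in WT and 0.58 (SE 0.09) in the KO-labelled libraries on day 1. On day 3 Six4 was still up in the KO-labelled libraries (0.58, SE 0.09) but was at 0.07 (SE 0.10) in WT, and on day 6 it had fallen by 0.36 in WT (adjusted p = 0.00348). That fall no longer passed on either TPM scale (-0.16 and -0.17) or without WT day 0 replicate 1 (-0.29). Eya1 rose by 0.63 (SE 0.11) in WT and by 1.10 (SE 0.10) in the KO-labelled libraries on day 1, a 2.14-fold rise in the latter. Its day 6 value was -0.33 in the KO-labelled libraries (adjusted p = 0.00801) and 0.10 in WT (adjusted p = 0.473). The former was -0.19 and -0.21 on the TPM scales and did not pass there.

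Eya4 rose by 0.77 (SE 0.13), 0.33 (SE 0.13) and 0.50 (SE 0.13) on days 1, 3 and 6 in the KO-labelled libraries. The day 3 rise was lost in 18 of 32 alternatives, with adjusted p up to 0.0988. In WT its values were 0.35 (SE 0.15), 0.35 (SE 0.15) and 0.23 (SE 0.15), of which those of days 1 and 3 had adjusted p of 0.0538 and 0.0513. The WT day 1 and day 3 values passed in 15 and 18 of the 32 alternatives. Without replicate 2 of the day 1 KO-labelled libraries, the day 1 rise in that group was 0.56.

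**Figure D4:**
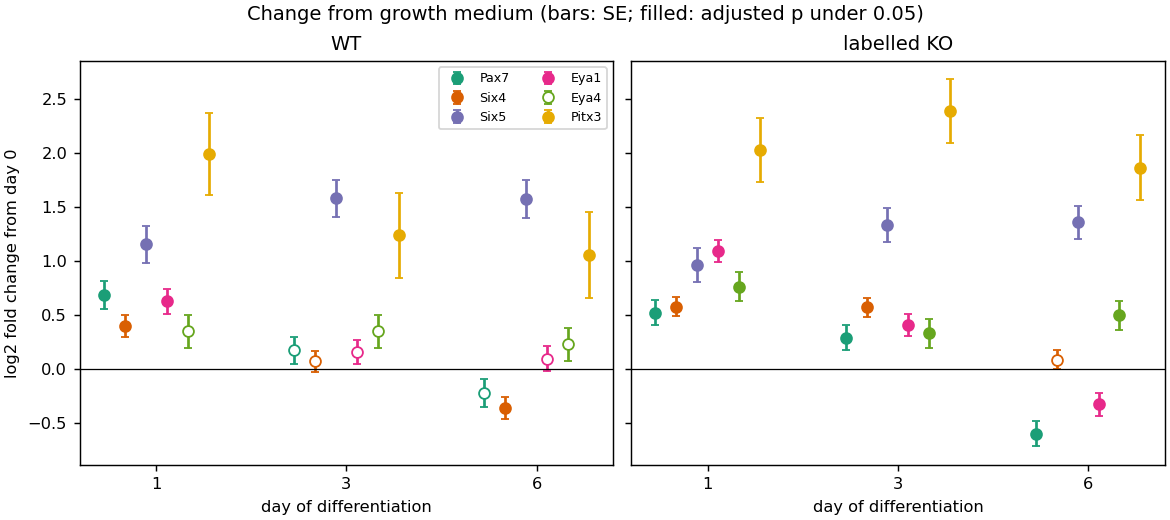
Log2FC from day 0 (y axis) on days 1, 3 and 6 (x axis) in WT (left) and in the KO-labelled libraries (right) for the 6 tested factors; bars are standard errors and filled points passed an adjusted p under 0.05. Six5 and Pitx3 stay above 0.9 throughout, whereas Pax7 passes from 0.52 on day 1 to -0.59 on day 6 in the KO-labelled libraries.

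An interaction term asked whether the response since day 0 was unequal in the genotypes; it uses the same day 0 libraries on every day. On day 1 no member passed in edgeR or DESeq2 (Eya1 and Eya4 had unadjusted p of 0.00508 and 0.0495), where 3.95% of all genes did, 2.64% higher and 1.31% lower. Six4 was the member that passed on day 3, where 10.7% of all genes did (6.65% higher, 4.06% lower), and on day 6, where 13% did (7.54% higher, 5.42% lower). Its day 3 interaction was 0.50 (SE 0.13, adjusted p = 0.0147). Its day 6 interaction was 0.45 (SE 0.13, adjusted p = 0.0277). On day 3 Six4 was above day 0 in the KO-labelled libraries (0.58) and at 0.07 in WT, whereas on day 6 it had fallen below day 0 in WT (-0.36) and was at 0.09 (adjusted p = 0.375) in the KO-labelled libraries. Other than with the size minimum, the day 3 call was lost on both TPM scales, without either WT day 0 library (0.42 and 0.53) and without WT day 3 replicate 2 (0.44), and the day 6 call in 14 alternatives, with values down to 0.33. For Eya1 the values were 0.47, 0.25 and -0.42 on days 1, 3 and 6, with adjusted p of 0.0866, 0.366 and 0.0777. Those of Pitx3 were 0.04, 1.15 and 0.81 with standard errors of 0.51, 0.51 and 0.51, and an adjusted p of 0.168 on day 3. The day 3 value ran from 0.42 to 1.59 over the alternatives and passed in 2, the fit of only the groups compared (1.11) and the one without KO-labelled day 1 replicate 2 (1.09), with adjusted p from 0.0280 to 0.845 over all of them. For Pax7 they were -0.16, 0.12 and -0.37, for Six5 -0.19, -0.25 and -0.22, and for Eya4 0.42, -0.02 and 0.27, with adjusted p of 0.187 or more. The day 6 value of Pax7 passed without KO-labelled day 6 replicate 1 (-0.62), and that of Eya1 in 4 alternatives that each left out 1 library, with values down to -0.59.

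Correlations over the 23 libraries describe how the members varied among themselves and share the libraries and groups, so they carry no p. The pairs most alike in log2 CPM were Pax7 with Eya1 (r = 0.67), Six4 with Eya1 (r = 0.67), Six4 with Pitx3 (r = 0.65) and Six4 with Eya4 (r = 0.61). Pairs close to 0 were Pax7 with Pitx3 (r = -0.06), Pax7 with Eya4 (r = 0.03) and Six5 with Eya1 (r = 0.02). Among 4582 genes with a clear range, the profile of Pax7 was most like those of S1pr2, a sphingosine-1-phosphate receptor (r = 0.94), and Robo1, a Slit receptor (r = 0.92). Six4 was most like Purb (r = 0.92) and Bves, a Popeye-domain membrane protein (r = 0.89), and Six5 was most like Fam20a and Loxl1, a lysyl oxidase-like enzyme (r = 0.97 each). For Eya1 the nearest were Xrcc5, a subunit of the Ku DNA repair complex (r = 0.95), and Hmgn3, a nucleosome-binding protein (r = 0.94). For Eya4 they were Tlr4, an endotoxin receptor (r = 0.87), and Atrnl1 (r = 0.85), and for Pitx3 they were Popdc3, another Popeye-domain protein (r = 0.95), and Rnf122 (r = 0.93).

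Other genes of the same families placed these members in context. Six3, an eye and forebrain factor, had 28 to 30 counts in WT on day 0, 20 to 26 on day 1, 13 to 29 on day 3 and 20 to 23 on day 6. It had 0 counts in all 12 KO-labelled libraries. Taking 3 counts per library as the limit, Six3 was at least 9.45-fold, 7.43-fold, 6.66-fold and 7.03-fold lower there on days 0, 1, 3 and 6. It passed the filter on low counts only through the WT libraries, so these values are a description. Pax6, another eye factor, had 29 to 59 counts in the WT libraries and 0 to 11 in those labelled KO, with log2FC of -3.17 (SE 0.61), -2.52 (SE 0.56), -3.01 (SE 0.59) and -3.48 (SE 0.65) on days 0, 1, 3 and 6. Pax6 passed the filter mainly through the WT libraries, so its values are a description too. Both genes are low in absolute terms, at 0.56 to 2.56 CPM in WT. Six3 overlaps the antisense gene Six3os1, which had at most 4 counts.

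**Figure D5:**
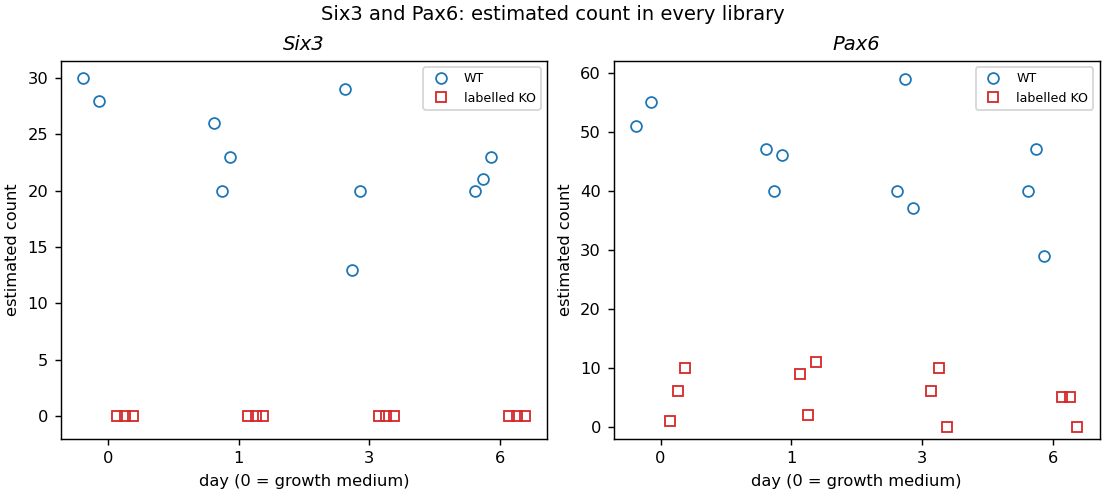
Estimated counts of Six3 and Pax6 (y axes) in every library by day (x axes); circles are WT and squares KO-labelled libraries. Six3 is at 13 to 30 counts in WT and at 0 in all KO-labelled libraries, and Pax6 is at 29 to 59 against 0 to 11 counts.

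Eya3, another Eya cofactor, named here after its values were seen, was at 23.7 TPM in WT on day 0, above every member. Between genotypes its log2FC was 0.03, 0.09, -0.13 and -0.09 on days 0, 1, 3 and 6, with adjusted p of 0.190 or more (edgeR). Pax9, a paired-box factor, had 11, 3 and 13 counts in the KO-labelled libraries of day 0 and 0 and 2 counts in WT, and it passed the filter mainly through that group, so no test is given.

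A list of 24 progenitor and satellite cell genes had 21 tested members. Between genotypes 11 of these passed on day 0 (6 higher, 5 lower), 14 on day 1 (7 and 7), 15 on day 3 (9 and 6) and 16 on day 6 (10 and 6), where 17.5%, 42.2%, 43.2% and 42.9% of all tested genes did, with medians of -0.01, -0.12, 0.08 and 0.04. Cd34, a surface marker of quiescent satellite cells, had log2FC of -3.06, -2.94, -2.81 and -2.97 on days 0, 1, 3 and 6. Itm2a, a membrane protein of muscle progenitors, had 8 counts in both WT libraries of day 0 and 60 to 79 in those of day 6, against at most 3 counts in any KO-labelled library. It is among the 21 tested genes but passed the filter on low counts only through the WT libraries. Its part in the counts above is therefore a description. Spry1, an inhibitor of FGF signalling tied to satellite cell quiescence, was higher in the KO-labelled libraries on all 4 days (log2FC 2.95, 2.36, 1.21 and 0.65). Its day 0 value rests on 4 and 8 counts in the WT libraries, against 44 to 47 in those labelled KO. Lbx1, a migrating progenitor factor, was also higher there on all 4 days (1.60, 1.93, 2.45 and 2.17). Of the 4 myogenic bHLH factors, 1 (lower), 2 (1 higher, 1 lower), 2 (both higher) and 3 (2 higher, 1 lower) passed on days 0, 1, 3 and 6, against the same shares of 17.5%, 42.2%, 43.2% and 42.9%. Myf5 was the lower one on days 0, 1 and 6 (log2FC -1.43, -0.89 and -0.34), and Myog was higher on days 1, 3 and 6 (1.59, 1.55 and 2.61).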

How the data were processed

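Bulk poly(A) RNA of C2C12 cells was sequenced in 23 libraries of 8 groups. Bowtie2, RSEM and the build mm10 are named, without versions or roles, in the submitters' processing notes; annotation, filters and strand use are not given in the sources used here. The authors deposited estimated counts per gene symbol, as whole numbers (rounding changed nothing), and TPM. Columns were matched to samples by name. Of 32793 rows, 14187 genes passed edgeR's filterByExpr (minimum count 10, minimum total 15).

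One group-means model over all libraries was fitted with edgeR 4.0.16 in R 4.3.3 (TMM scaling, quasi-likelihood F-test, 13 contrasts). Within each contrast, Benjamini-Hochberg adjustment covered every tested gene, with a threshold of 0.05. CPM uses the scaled library size, log2 CPM adds 2 counts, and the standard error was derived from F. Total counts were 22197606 to 23684077 per library, and 3 counts were taken as the limit that a count of 0 allows; intervals and limits cover counting error only. The procedure was tested on simulated data.

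The members and lists were chosen with earlier results of these data known. Some results of the family and marker lists are not reported here. Named genes were the 8 members, Runx1, 4 bHLH factors, the 2 tested genes most correlated with each member (mean of at least 5 CPM in some group, range of at least 1 log2 unit) and up to 3 called genes per list and contrast with the most extreme log2FC. GC content came from GENCODE M21 transcripts for 93.5% of tested genes. Alternatives were RLE scaling, library size only, no filter, DESeq2 1.42.0, limma 3.58.1 on log2(TPM + 1) and log2(TPM + 0.1), the replicate block, a fit of only the groups compared, an absolute log2FC of at least 1, and each library left out in turn.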

Additional observations from a re-analysis of the deposited data

Results flagged for a closer look

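The change of Six4 since growth medium differed between the genotypes by the interaction test on 2 days. On day 3 the difference was 0.50 log2 units (SE 0.13, adjusted p = 0.0147, edgeR). By day 6 it was 0.45 (SE 0.13, adjusted p = 0.0277), both higher in the KO-labelled libraries. In WT, Six4 was 0.07 and -0.36 log2 units from day 0 on these days, and in the KO-labelled libraries it was 0.58 and 0.09. Over the alternatives the adjusted p ran from 0.00133 to 0.245 for day 3 and from 0.0156 to 0.190 for day 6. The WT value of day 6 no longer passed on the TPM scales (-0.16 and -0.17) or without WT day 0 replicate 1 (-0.29).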

How the results depend on the processing

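Over the 6 tested members and 13 contrasts, 44 differences passed in the reported fit and none of them changed sign in any alternative. Apart from the size minimum, 30 of the 44 passed in every alternative. A size minimum of 1 log2 unit left 0, 1 and 1 members called between genotypes on days 1, 3 and 6, 2 on day 1 against day 0 in WT and 2 on each day in the KO-labelled libraries, and 0 in both interactions. On log2(TPM + 0.1) the median of all genes moved by -0.15 to 0.18. Both TPM scales lost 9 of the 44 calls and called 3 members on day 1 between genotypes and 0 in the interactions of days 3 and 6. Fitting only the groups compared called 1 member on day 0, 2 on day 1, 4 on day 3 against day 0 in WT, and 2 and 0 in the interactions of days 3 and 6. Library size only called 1 member on day 0 and 0 in the day 6 interaction, and no filter called 1 on day 0. The replicate block lost none of the 44 calls and called 1 member, Pax7, on day 0; same-numbered libraries correlated between -0.24 and 0.11 in their deviations, so the numbers were not treated as pairs.

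Signs turned in 8 of the 34 differences that had not passed. Between genotypes on day 0, library size only, log2(TPM + 1) and log2(TPM + 0.1) gave -0.0086, -0.0078 and -0.0084 for Six4, -0.0414, -0.0447 and -0.0494 for Eya1, and -0.0097, -0.0155 and -0.0169 for Eya4. For Eya4 on day 3, RLE scaling and DESeq2 gave -0.0049, library size only -0.0217, the TPM scales -0.123 and -0.131, and only the groups compared -0.0019. The Pitx3 interaction of day 1 was -0.14 with log2(TPM + 0.1). With each library left out in turn, Eya1 ran from -0.0936 to 0.163 (day 0, genotypes) and from -0.0213 to 0.264 (day 6 in WT), Eya4 from -0.0373 to 0.0815 (day 3, genotypes) and from -0.126 to 0.0345 (day 3 interaction), Pitx3 from -0.685 to 0.507 (day 1 interaction) and Pax7 from -0.0531 to 0.223 (day 3 interaction). The number of members called ran from 0 to 2 on day 0 and from 3 to 6 on day 1 between genotypes, from 1 to 3 on day 3 and 1 to 4 on day 6 against day 0 in WT, and from 0 to 2 in the interactions of days 3 and 6. Causes were not tested. With 2 WT libraries on day 0, leaving 1 out assumes that the other varies like the remaining groups. Pitx3 had 22 and 49 counts in the WT libraries of day 0, the fewest of any tested member.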
